A study of Saccharomyces cerevisiae with 2 samples.

Results

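The enzymes of the mitochondrial tricarboxylic acid cycle were followed here through the RNA of 10 nuclear genes of budding yeast. The 10 genes were chosen by function and found by systematic name among 6692 genes, of which 6007 have a coding length in the R64 annotation, the assembly named sacCer3 in the labels. In order of the cycle they are CIT1 (citrate synthase), ACO1 (aconitase), IDH1 and IDH2 (isocitrate dehydrogenase), KGD1 and KGD2 (2-oxoglutarate dehydrogenase), LSC1 and LSC2 (succinyl-CoA ligase), FUM1 (fumarase) and MDH1 (malate dehydrogenase). RNA was sequenced from 2 libraries of 1 group, replicates 1 and 2 of methionine depletion. Cells labelled as strain yJL59a grew in 50 mL of synthetic medium that held methionine. At an OD660 of 0.2 they were washed and moved to medium without it, as the methods state. The label gives the strain as MATa with the alleles his3-11,15, trp1-1 and ura3-1, then can1-100 and ade2-1, and a mutant allele of LEU2. The label also lists reporters driven by the MET3 promoter, CDC20::MET3pr-mCherry::URA3 and CWC23::MET3pr-GFP::KanMX. Both libraries carry this 1 strain label, which their mating-type genes went against, no library with methionine was analysed here, and no gene can be called induced or repressed by its removal.

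The cycle oxidises the acetyl group of acetyl-CoA to carbon dioxide in the mitochondrial matrix and passes the electrons to the respiratory chain. Its first steps also make 2-oxoglutarate, the carbon skeleton of glutamate, so that yeast needs them for biosynthesis even where glucose represses respiration. Transcription of cycle genes is known to depend on the Hap2, Hap3, Hap4 and Hap5 complex, which binds CCAAT. CIT1, ACO1, IDH1 and IDH2 are also known targets of Rtg1 and Rtg3, which bind GTCAC and act when mitochondrial function is weak.

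Replicate 1 held 34052011 counts and replicate 2 held 35367508. The members took 113802 and 134539 of them, or 0.334% and 0.380%. Values are FPKM, counts scaled to the size of the library and to each kb of coding sequence, given as mean ± SD of the replicates (n = 2). The mating-type markers went against the label, since 7 a-specific genes lay between 3.92 and 11.99 FPKM and 4 alpha-specific genes between 229.9 and 2401 FPKM, so the identity of the strain is in doubt in both libraries, which are called here by their label. The study calls its samples biologically independent. With 1 group no test between conditions exists, and each level was set beside the other replicate and beside all genes.

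To show the DNA in front of the genes that differed most between the replicates, the 250 bases before and 50 bases after the first base of the start codon are printed for ACO1, IDH1, IDH2 and MDH1, with CIT1, the highest member, beside them. The sequences are 5′ to 3′ on the strand of the gene, and capitals mark CCAAT or its reverse complement ATTGG. They lie in R64 at chrXII:737499-737798, minus strand for ACO1, chrXIV:558953-559252, minus strand for IDH1, chrXV:580000-580299, plus strand for IDH2, chrXI:278873-279172, plus strand for MDH1 and chrXIV:631012-631311, minus strand for CIT1.
ACO1: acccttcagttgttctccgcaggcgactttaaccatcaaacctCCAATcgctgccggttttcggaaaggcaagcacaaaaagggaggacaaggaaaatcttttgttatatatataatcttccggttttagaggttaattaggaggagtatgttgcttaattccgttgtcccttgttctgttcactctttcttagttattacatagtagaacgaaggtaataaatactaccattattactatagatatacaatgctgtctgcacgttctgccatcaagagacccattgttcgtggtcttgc
IDH1: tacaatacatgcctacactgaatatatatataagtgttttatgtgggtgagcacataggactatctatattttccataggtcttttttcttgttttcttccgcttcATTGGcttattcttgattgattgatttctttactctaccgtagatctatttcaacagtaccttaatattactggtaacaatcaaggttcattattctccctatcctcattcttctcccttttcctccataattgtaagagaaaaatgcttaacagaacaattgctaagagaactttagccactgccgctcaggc
IDH2: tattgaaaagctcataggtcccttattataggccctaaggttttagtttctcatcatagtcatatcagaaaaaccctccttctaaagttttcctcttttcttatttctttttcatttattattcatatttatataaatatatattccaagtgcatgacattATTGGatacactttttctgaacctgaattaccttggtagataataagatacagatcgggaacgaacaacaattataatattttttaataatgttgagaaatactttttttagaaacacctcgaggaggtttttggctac
MDH1: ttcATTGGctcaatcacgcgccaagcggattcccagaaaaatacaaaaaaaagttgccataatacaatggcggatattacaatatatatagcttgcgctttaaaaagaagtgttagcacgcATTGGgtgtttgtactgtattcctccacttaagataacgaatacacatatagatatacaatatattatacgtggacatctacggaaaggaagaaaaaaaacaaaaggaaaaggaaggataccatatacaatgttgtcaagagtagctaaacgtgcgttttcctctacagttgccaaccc
CIT1: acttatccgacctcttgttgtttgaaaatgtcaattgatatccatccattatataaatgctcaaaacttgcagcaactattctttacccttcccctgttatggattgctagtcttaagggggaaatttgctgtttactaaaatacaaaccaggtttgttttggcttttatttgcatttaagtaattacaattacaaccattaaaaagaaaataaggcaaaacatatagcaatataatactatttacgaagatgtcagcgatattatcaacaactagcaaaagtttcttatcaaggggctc

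The window of ACO1 held CCAAT from 207 bases before the start codon, that of IDH1 held ATTGG from 144 bases before it, and that of IDH2 held ATTGG from 89 bases before it. MDH1 held the match on 2 occasions, from 247 and 129 bases before the start codon. FUM1 held CCAAT inside its coding sequence, at base 14. CIT1, KGD1, KGD2, LSC1 and LSC2 did not hold these letters in the window. Over 5988 windows of nuclear genes 43.3% held CCAAT on either strand, against 5 of 10 members. GTCAC, searched on both strands, was in 4 of 10 members (KGD1, LSC1, LSC2 and FUM1, with 2 matches in FUM1 and that of LSC1 inside its coding sequence, at base 44) and in 26.5% of all windows. Letters of the sites of the sulfur regulators were also searched on both strands. CACGTG, bound by Cbf1, was in 0 of 10 members and in 2.91% of all windows, and CTGTGG, bound by Met31 and Met32, was in LSC1 and in 6.85% of all windows. GTCAC and CACGTG can overlap, and a match is a description of letters, not a site shown to be bound. Sequence further upstream was not searched, so a window without a match does not show a promoter without one.

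All 10 members exceeded the all-gene median of 45.9 FPKM, above which 50% of genes lie by definition. The lowest member was 2.24 and the highest 12.8 times that median. CIT1, LSC2, LSC1 and MDH1, or 4 of 10, were in the highest 10% of genes, which began at 317 FPKM. The median of the members was 181 FPKM in replicate 1 and 200.01 FPKM in replicate 2, against 47.0 and 44.9 FPKM for all genes, a fold of 4.15 ± 0.432. Counting error was small, since the fewest counts of a member, 4482 for IDH1 in replicate 1, have an exact Poisson 95% interval of 4352 to 4615. Intervals here cover counting error only, as the reads carry no molecular identifiers. They take counts as independent and would be too narrow if both reads of a pair were counted.

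**Figure D1:**
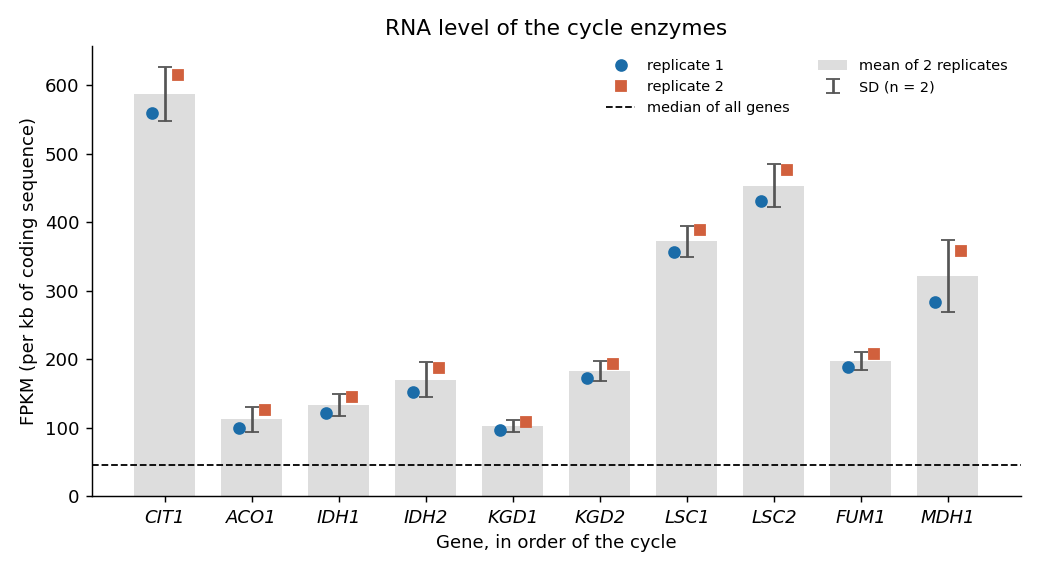
FPKM of the 10 members in order of the cycle, with grey bars for the mean of the replicates, error bars for the SD, and circles and squares for replicates 1 and 2. CIT1, at 587 FPKM, was highest by whole coding length and KGD1, at 103 FPKM, lowest, all lay above the dashed all-gene median of 45.9 FPKM, and replicate 2 was the higher in each gene.

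CIT1 (YNR001C, chromosome XIV, 629622 to 631061), which joins acetyl-CoA to oxaloacetate, had 27412 and 31312 counts in replicates 1 and 2. This is 559 and 615 FPKM, or 587 ± 39.4 FPKM, and more than 94.5% of genes. The enzyme that admits carbon to the cycle was thus, per whole coding length, the most abundant RNA of the members, and its lower replicate exceeded both replicates of every other member. ACO1 (YLR304C, chromosome XII, 735212 to 737548), which isomerises citrate to isocitrate and also helps keep the mitochondrial genome, had 99.6 and 126 FPKM, or 113 ± 18.3 FPKM. CIT1 was therefore followed, at the next step, by the second lowest member. ACO1 had 7927 and 10376 counts, and on the chromosome its nearest coding neighbour on the left is MET17, on the other strand and 1335 bp away.

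Isocitrate dehydrogenase is an octamer of Idh1 and Idh2 that makes 2-oxoglutarate with NAD+, with catalytic sites on Idh2 and regulatory sites on Idh1. IDH1 (YNL037C, chromosome XIV, 557920 to 559002) had 4482 and 5559 counts, the fewest of the members, and 122 and 145 FPKM, or 133 ± 16.7 FPKM. IDH2 (YOR136W, chromosome XV, 580250 to 581359) had 5770 and 7381 counts and 153 and 188 FPKM, or 170.3 ± 25.002 FPKM. By whole coding length the lower replicate of IDH2 lay above the higher replicate of IDH1, so their ranges did not overlap. By the length free of other reading frames, described below, their ranges did overlap. The 3 genes between citrate and 2-oxoglutarate, ACO1, IDH1 and IDH2, thus lay below the median of the members, 190.3 FPKM, by whole coding length. All 3 are overlapped in part by other reading frames, so that their place depends on the length used.

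The 2-oxoglutarate dehydrogenase complex makes succinyl-CoA, with Kgd1 as the decarboxylating component and Kgd2 as the succinyl transferase that forms its core. KGD1 (YIL125W, chromosome IX, 122689 to 125733) had 9989 and 11717 counts but, over the longest coding sequence of the members, 3045 bp, only 96.3 and 109 FPKM, or 103 ± 8.81 FPKM. KGD2 (YDR148C, chromosome IV, 753675 to 755066) had 8184 and 9491 counts over 1392 bp and 173 and 193 FPKM, or 183 ± 14.2 FPKM. KGD1 was the lowest member per length and had more counts than KGD2. The members of longest coding sequence, KGD1 and ACO1 (2337 bp), were also those of lowest FPKM, and the part of length in their level was not tested.

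Succinyl-CoA ligase turns succinyl-CoA into succinate and makes ATP, with Lsc1 as alpha and Lsc2 as beta subunit. LSC1 (YOR142W, chromosome XV, 593057 to 594046) had 12021 and 13590 counts and 357 and 388 FPKM, or 372 ± 22.3 FPKM. LSC2 (YGR244C, chromosome VII, 978036 to 979319) had 18864 and 21611 counts and 431 and 476 FPKM, or 454 ± 31.4 FPKM. Both subunits of this step stood above KGD1, KGD2 and FUM1 in each replicate. FUM1 (YPL262W, chromosome XVI, 47336 to 48802), whose product hydrates fumarate in mitochondria and is also found in the cytosol, had 9424 and 10752 counts and 189 and 207 FPKM, or 198 ± 13.1 FPKM. MDH1 (YKL085W, chromosome XI, 279123 to 280127), which closes the cycle by oxidising malate to oxaloacetate, had 9729 and 12750 counts and 284 and 359 FPKM, or 321 ± 52.6 FPKM. Its SD was the largest share of the mean among members, 16.4%, next to 16.3% for ACO1.

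In order of mean FPKM by whole coding length, used throughout this paragraph, the members ran CIT1, LSC2, LSC1, MDH1, FUM1, KGD2, IDH2, IDH1, ACO1 and KGD1. The highest was 5.72 times the lowest. The order was the same in each replicate. Of the 9 pairs of neighbours in it, 4 had replicate ranges that did not overlap, namely CIT1 over LSC2, LSC2 over LSC1, MDH1 over FUM1 and IDH2 over IDH1. LSC1 and MDH1 overlapped, as did FUM1 with KGD2, KGD2 with IDH2, IDH1 with ACO1, and ACO1 with KGD1, so the ranges of these 5 pairs were not apart. Within each library, where both genes share its scaling, the higher gene of all 9 pairs was higher in both replicates, by as little as 1.03-fold for KGD2 over IDH2 in replicate 2 and ACO1 over KGD1 in replicate 1. FUM1 was 1.09 and 1.07 times KGD2. By reaction, the median was 152 FPKM for CIT1, ACO1, IDH1 and IDH2, 278 FPKM for KGD1, KGD2, LSC1 and LSC2, and 259.7 FPKM for FUM1 and MDH1, and the ranges of these groups of genes overlapped. Along the cycle the level by whole coding length was high at CIT1, low from ACO1 to KGD2, high at LSC1 and LSC2, lower at FUM1 and higher again at MDH1.

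Counts of 4 members may be incomplete. Reading frames of at least 100 codons that are not annotated genes overlap part of IDH1, IDH2, ACO1 and LSC2, which are 67.3%, 77.4%, 81.0% and 59.3% free of them. Each replicate also has counts for 685 genes without a coding length, and whether these frames are among them was not looked up. Whether strand was used in counting is not given in the sources used here. Divided by the free length alone, LSC2 stood at 764 FPKM, above CIT1 at 587 FPKM, and IDH2 at 220.1 and IDH1 at 198.1 FPKM stood above KGD2 at 183 FPKM. ACO1 then stood at 139 FPKM. None of the 10 members shares sequence with another place in the genome by the criterion used, so near-identical copies do not bear on their counts.

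The subunits of each enzyme act in 1 complex, and their ratio within a library does not depend on library scaling. IDH1 stood at 0.796 of IDH2 in replicate 1 and 0.772 in replicate 2, or 0.784 ± 0.0171. KGD1 stood at 0.558 and 0.564 of KGD2, or 0.561 ± 0.00452. LSC1 stood at 0.826 and 0.816 of LSC2, or 0.821 ± 0.00770. In every pair the replicates lay close together and below 1, and the ranges of the 3 ratios did not overlap. The size of 2 of these ratios rested on the length used. By free length IDH1/IDH2 was 0.901 ± 0.0197 and LSC1/LSC2 was 0.487 ± 0.00457, and without division by length KGD1/KGD2 turned to 1.23 ± 0.00989, so that its direction depends on length.

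**Figure D2:**
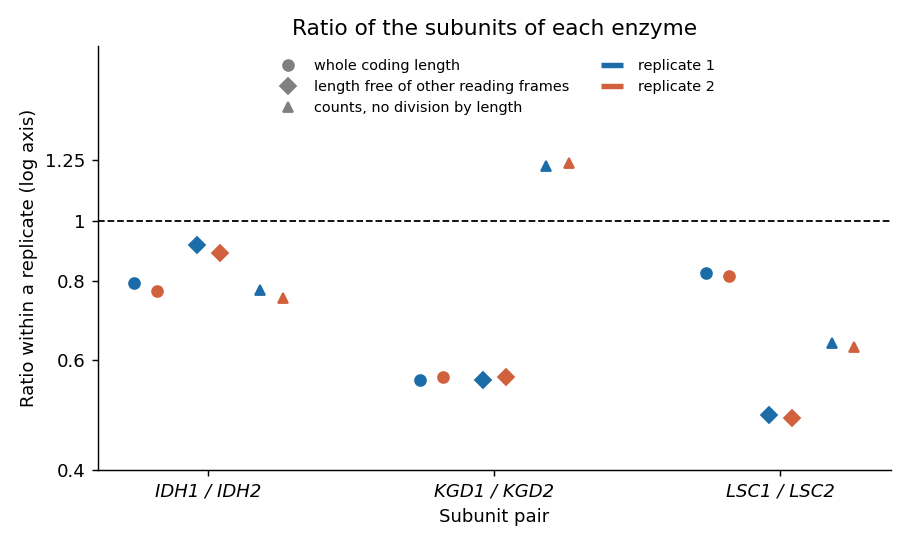
Ratio of FPKM of the subunits of each enzyme within a replicate, on a log axis, by whole coding length (circles), by the length free of other reading frames (diamonds) and as plain counts (triangles), with blue for replicate 1 and orange for replicate 2. Replicates lay close together in every pair, and the spread between ways of dividing by length was larger, with KGD1/KGD2 at 0.561 by length and 1.23 by counts.

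The 2-oxoglutarate dehydrogenase complex holds further subunits outside the list. LPD1, the dihydrolipoamide dehydrogenase that this complex shares with pyruvate dehydrogenase and the glycine cleavage system, had 291 and 309 FPKM, or 300.0 ± 12.4 FPKM. KGD1 stood at 0.342 ± 0.0152 and KGD2 at 0.609 ± 0.0222 of LPD1, and all 3 genes are without overlapping frames. KGD4, a small subunit that ties LPD1 to the core, had 150.0 and 173 FPKM, or 161 ± 15.9 FPKM. The RNA of the complex thus ran from KGD1 through KGD4 and KGD2 to the shared subunit.

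Succinate dehydrogenase, which completes the cycle within the respiratory chain, gave values in the range of the members. SDH1, the flavoprotein, had 123 and 148 FPKM, or 136 ± 17.8 FPKM, and SDH2, the iron-sulfur subunit, had 215 and 245 FPKM, or 230.0 ± 21.3 FPKM. SDH3 and SDH4, the membrane anchors, stood at 346 ± 26.5 and 342 ± 31.0 FPKM, and SDH1 is 79.1% free of other reading frames. With the assembly factors the list had 8 genes, 8 of 8 above the all-gene median, down to SDH6 at 85.3 ± 9.85 FPKM.

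Yeast holds isozymes of several cycle enzymes outside the matrix, with another cofactor or with a further substrate, which set the members in context. CIT2, the peroxisomal citrate synthase of the glyoxylate cycle and a known Rtg target, had 886 and 703 FPKM, or 795 ± 129.6 FPKM, above CIT1 in both replicates. CIT3, a mitochondrial enzyme that also uses propionyl-CoA, stood at 24.1 ± 1.69 FPKM, and CIT1 was 24.4 ± 3.35 times as high. Citrate synthase RNA was thus mostly shared between CIT1 and CIT2, with CIT1 at 0.631 of CIT2 in replicate 1 and 0.874 in replicate 2.

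IDP1, the mitochondrial NADP+ isocitrate dehydrogenase, had 271 and 344 FPKM, or 307 ± 51.6 FPKM, above both IDH1 and IDH2, with IDH1 at 0.435 ± 0.0188 of it. The cytosolic IDP2 and the peroxisomal IDP3 were low, at 21.2 ± 0.468 and 33.4 ± 0.523 FPKM, so that IDH1 was 6.29 ± 0.649 and 3.98 ± 0.437 times as high. IDP1 is 64.6% free of other reading frames. MDH2, the cytosolic malate dehydrogenase of gluconeogenesis, had 431 and 417 FPKM, or 424 ± 9.92 FPKM, and MDH1 stood at 0.659 and 0.859 of it. MDH3, the peroxisomal form, stood at 241 ± 13.7 FPKM, below MDH1 in both replicates. Of 7 isozymes, 4 lay above the all-gene median.

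**Figure D3:**
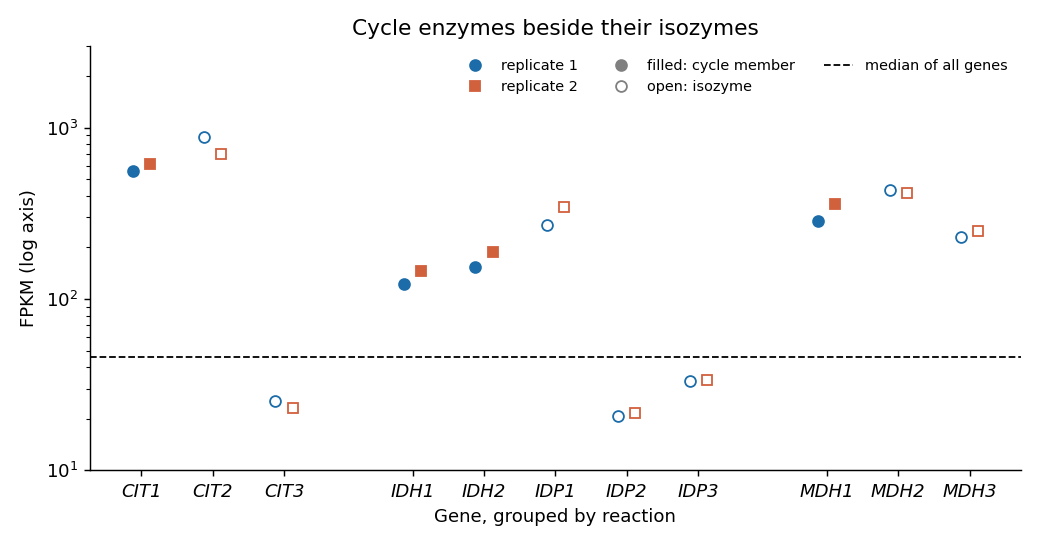
FPKM on a log axis of the cycle members with isozymes (filled) and of those isozymes (open), grouped by reaction, with circles for replicate 1, squares for replicate 2 and a dashed line at the all-gene median of 45.9 FPKM. CIT2, IDP1 and MDH2 stood above CIT1, IDH1 and MDH1 in both replicates, while CIT3, IDP2 and IDP3 lay below the dashed line.

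Genes that feed, connect or control the cycle were taken as further lists, described by counts. Of 10 genes of pyruvate entry, 10 lay above the all-gene median, led by MPC2, a subunit of the mitochondrial pyruvate carrier, at 1618 ± 206.7 FPKM and PDA1, a pyruvate dehydrogenase subunit, at 642 ± 21.0 FPKM, with malic enzyme MAE1 lowest at 76.3 ± 10.4 FPKM. Of 7 mitochondrial carriers of cycle acids, 5 lay above it, from the citrate and 2-oxoglutarate carrier YHM2 at 250.5 ± 45.6 FPKM and the oxaloacetate carrier OAC1 at 149 ± 26.7 FPKM down to the succinate and fumarate carrier SFC1 at 4.403 ± 0.202 FPKM. Of 8 regulators, 8 lay above it, though their median was 58.2 FPKM against 45.9 FPKM for all genes. HAP4, the activating subunit of the CCAAT-binding complex, led them with 296 and 315 FPKM, or 305 ± 13.3 FPKM, and the Rtg pathway gave RTG2, its sensor, at 88.3 ± 0.280 FPKM and RTG1 lowest at 48.7 ± 3.82 FPKM.

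All 10 members were higher in replicate 2 than in replicate 1, where 41.3% of all genes were. On the scale of log2(FPKM+1) the members differed by 0.12 to 0.33, with a median of 0.17, against a median of -0.03 over all genes, whose 10th and 90th percentiles were -0.27 and 0.19. By absolute size the median difference was 0.17 for members and 0.11 for all genes. MDH1, ACO1 and IDH2 passed 1.2-fold, or 3 of 10 members, where 5.73% of all genes passed it with replicate 2 the higher. None of the 10 members passed it with replicate 1 the higher, as 10.7% of all genes did. These are 2 cultures of 1 group, so the difference measures spread between replicates and has no test. In bulk RNA a change in the share of cells that express a gene and a change in the RNA of each cell cannot be told apart.

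In order of this difference, the counting interval of each member overlapped that of the next. MDH1 was 1.26-fold higher in replicate 2 (exact binomial 95% interval of the count ratio 1.23 to 1.30), ACO1 1.26-fold, IDH2 1.23-fold and IDH1 1.19-fold (1.15 to 1.24). KGD1 at 1.13-fold (1.10 to 1.16), whose interval overlapped that of IDH1, KGD2 at 1.12-fold, LSC2 and CIT1 at 1.10-fold, FUM1 at 1.10-fold and LSC1 at 1.09-fold (1.06 to 1.12) made up the rest. The 4 largest differences were those of the genes with CCAAT or ATTGG before the start codon, a grouping seen after the values were known. It leaves out FUM1, whose match in the same window lies in the coding sequence and which was 1 of the members of smallest difference. Over all genes the median difference was -0.03 with CCAAT in the window (2591 genes) and -0.03 without it (3397 genes), so that both medians lay together across the genome. These medians count a match anywhere in the window, its coding part included. The narrower grouping by matches before the start codon was not counted over all genes, and no link to a regulator was tested. Of the 8 regulators, 4 were higher in replicate 2, where 41.3% of all genes were, with a median difference of 0.01. None of the 8 passed 1.2-fold either way. HAP4 was 1.06-fold higher in replicate 2 and RTG1 stood at 0.895 of its level in replicate 1.

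The related genes split in the same comparison. Succinate dehydrogenase moved like the members, with 8 of 8 genes of its list higher in replicate 2 and SDH1 1.204-fold higher, and IDP1 was 1.27-fold higher. CIT2 stood at 0.793 of its replicate 1 level, the other way from CIT1. Of the 7 carriers, 3 passed 1.2-fold with replicate 1 the higher, where 10.7% of all genes did. These were CTP1 at 0.645, YHM2 at 0.772 and OAC1 at 0.775 of their replicate 1 level. Another 3 carriers were higher in replicate 2, and none of these passed 1.2-fold. The ratios of CIT1 to CIT2 and of MDH1 to MDH2 therefore had a larger spread than the subunit ratios.

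**Figure D4:**
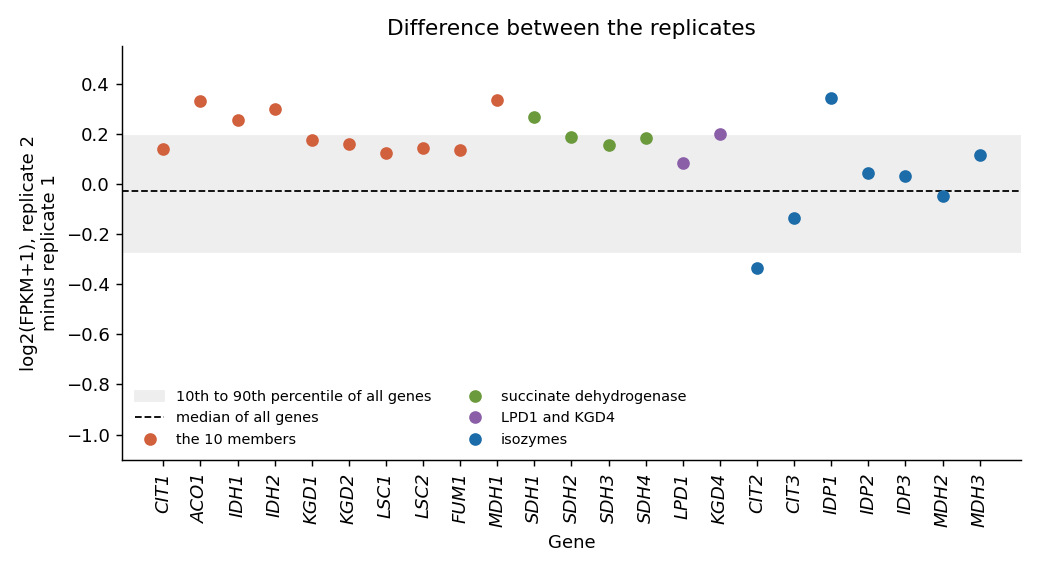
Difference in log2(FPKM+1), replicate 2 minus replicate 1, for the 10 members (orange), succinate dehydrogenase (green), LPD1 and KGD4 (purple) and the isozymes (blue), with the 10th to 90th percentile of all genes shaded and their median dashed. All members lay above 0, between 0.12 and 0.33, while CIT2 lay below the shaded range.

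Features not used to choose the members were also compared. They lie on 8 chromosomes, 5 on each strand, and each has 1 coding exon, with a median coding length of 1338 bp against 1197 bp over all genes. Codon use was scored as the codon adaptation index, which is 1 where a gene uses only the codons most frequent in the 132 cytosolic ribosomal protein genes taken by name. All 10 members lay above 0.236, the 75th percentile of genes, where the all-gene median was 0.195. ACO1 had the highest index, 0.542, above 95.3% of genes, although it was the second lowest in FPKM, and LSC2 had the lowest, 0.252, although it was the second highest. MDH1 followed ACO1 at 0.371, and the other 7 members lay close together, from 0.298 for LSC1 to 0.329 for CIT1. Codon use thus did not order the members as their RNA did.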

How the data were processed

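RNA-seq of 2 libraries, replicates 1 and 2 of 1 group, was used. The authors aligned reads to sacCer3, and the submitters' processing notes name featureCounts 2.0.3. They call the values FPKM, but the deposited values are raw counts, whole numbers that sum to 34052011 and 35367508. The study lists fewer uniquely mapped reads than this total for replicate 1 and more for replicate 2. How reads were assigned to overlapping genes is therefore not known. For the study's sequencing data in general BWA is named, and for RNA-seq itself the aligner, annotation, strand setting and the counting of reads or pairs were, in the sources used here, not given. FPKM was computed from the count, the coding length in R64 and the total of each library, over 6007 of 6692 genes. The other 685 genes, with 0.281% and 0.292% of counts, had no coding length and stayed in library totals only. Coding lengths hold no untranslated regions.

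Shared sequence was found with blastn 2.17.0 (matches of at least 50 bp and 98% identity), and overlap with reading frames of at least 100 codons. Python 3.11.15 was used. Scaling factors alone came from edgeR 4.0.16 and from DESeq2 1.42.0, run in R 4.3.3. The computation of FPKM and of the log2 difference, here without a pseudocount, was tested on simulated Poisson counts. That simulation held no variation between cultures. No between-group test exists, and 2 libraries give no pattern by which to name similar genes. Differences between replicates use log2(FPKM+1). The members, lists and motifs were chosen with earlier results of these data known. The text names all members, LPD1, KGD4, the 4 succinate dehydrogenase subunits, the isozymes, and the 2 highest and 1 lowest gene of each further list. CTP1 was named after its values were seen, and 1 planned isozyme ratio is not reported here. Alternatives were other scaling, TPM, other lengths, filters, pseudocount and single replicates.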

Additional observations from a re-analysis of the deposited data

How the results depend on the processing

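The fold of the members' median over the all-gene median, 4.15, was 4.96 without division by length, 4.90 over genes with neither overlap nor shared sequence (6 members), and 4.66 as a ratio of geometric means of FPKM+1. It lay between 3.84 and 4.45 by single replicates. TMM, median-of-ratios scaling and TPM left it at 4.15, as they must, since each multiplies all genes of a library by the same factor. IDH1/IDH2 was 0.901 by free length and 0.765 by counts, LSC1/LSC2 was 0.487 and 0.633, and KGD1/KGD2 turned from 0.561 to 1.23 by counts, which follows from their unequal lengths. By single replicates these ratios ran from 0.772 to 0.796, 0.816 to 0.826 and 0.558 to 0.564. Of the 10 members 10 kept their place in the order in each replicate alone, but 4 did by free length and 4 by counts. All 10 also kept it under every scaling, which cannot change an order that both replicates share. Ranges need both replicates, so the number of neighbours apart has no value by single replicate. All 10 members were higher in replicate 2 under each scaling, with a median difference of 0.17 to 0.20 (log2). No paired analysis was possible because there is 1 group.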
